A study of Mus musculus with 6 samples.

Results

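Oxidative phosphorylation subunit genes were followed in mouse CD4+ T cells, in controls at 0 h and at 8 h after transfer of a synthetic miR-155 oligo. The genes were taken from the count table by symbol: names that begin with Nduf followed by a, b, c, s or v and a number (complex I), Sdha to Sdhd (complex II), names that begin with Uqcr together with Cyc1 (complex III), Cycs (cytochrome c), names that begin with Cox and a number from 4 to 8 (complex IV), and names that begin with Atp5 (complex V, the ATP synthase). This rule used names and no measured value, and it found 82 of the 13177 RefSeq accessions of the table, each with a symbol of its own. Complex I gave 36 genes, complex II 4, complex III 8, cytochrome c 1, complex IV 16 and complex V 17. Ndufa4 was counted with complex I by its name, although its protein is now regarded as a subunit of complex IV. Assembly factors and regulators lay outside the rule and were counted as separate lists.

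The series held 6 bulk RNA libraries in 2 groups of 3. The control group was collected at 0 h and the other group 8 h after transfection, and the treatment label names the synthetic miR-155 oligo for both groups. Cells were isolated with a CD4+ kit and magnetic beads, and the source label is CD4+ T cells in both groups, while the description of the 8 h samples reads CD5+. Strain, genotype, sex, age and the number of animals are not stated in the labels. No library at 8 h without oligo was among the samples, so the oligo, the transfection procedure and the time in culture cannot be told apart. The labels do not tell whether replicates are separate cultures or animals, so p-values measure the spread between these libraries, which may be technical. In bulk RNA, fewer cells of a type and less RNA per cell cannot be told apart either.

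The proteins of these genes, except cytochrome c, belong to complexes of the inner mitochondrial membrane. Complex I takes electrons from NADH and complex II takes them from succinate. Both pass them through ubiquinone to complex III, and cytochrome c carries them on to complex IV, where oxygen is reduced. Complexes I, III and IV pump protons across the membrane, and the ATP synthase lets them flow back to make ATP. T cells are known to raise both glycolysis and mitochondrial respiration when they are activated. A few core subunits of complexes I, III, IV and V are encoded by mitochondrial DNA, and 0 of the 13 such genes had a row in the table, so the values below are of nuclear genes.

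The small RNA that was transferred, miR-155, is raised in activated lymphocytes and pairs with messenger RNAs mainly through its seed. Its mature 5′ arm is printed because the later search for target sites rests on it. The sequence is that of RefSeq, which lies on chr16:84714143-84714165 of GRCm38 (plus strand), and capitals mark the seed, bases 2 to 8.
mmu-miR-155-5p: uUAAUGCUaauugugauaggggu

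Libraries held 4564010 to 13675127 counts, with a median of 10 to 30 counts per accession, and their 100 most abundant accessions took 57.7% to 68.6% of the counts. Markers of T cells took 0.294% to 2.09% of the counts in controls and 0.524% to 1.37% at 8 h, but Cd4 itself had 5 to 10 counts and Zap70 2 to 17 counts in a library. The housekeeping genes Actb and Gapdh had at most 5 and 11 counts, so it is uncertain that a row gives a gene's usual read count, which limits all values below. Cytotoxic and natural killer cell markers (13 genes) took 0.155% to 0.421% in controls and 0.028% to 0.0445% at 8 h, with Gzmb their most abundant gene. The 12 matched markers of red cells and platelets took 0.0103% to 0.0204% in controls and 0.00139% to 0.0095% at 8 h. In both of these lists the summed share of every 8 h library lay below every control, and their part in the results was not tested. The sums do not hold for every gene. The median fitted log2 fold change (8 h minus control) was -2.33 for tested cytotoxic genes and -2.07 for tested red cell and platelet genes. Over all tested accessions it was 0.06. Of 12 tested cytotoxic genes 5 were higher and 7 lower. In 2 of them every 8 h library lay below every control, where 5.08% of all tested accessions behaved so. Of 8 tested red cell and platelet genes 2 were higher and 6 lower, with 1 so separated. Few genes weigh in the sums, such as Gzmb with 25368 counts in control 1 and Nkg7 with 18478 in control 3. B cell markers took at most 0.0159% and myeloid markers at most 0.0198% of any library.

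The subunit genes did not share one level, although their proteins are built into the complexes in fixed proportions. In mean CPM, which scales a count by the TMM-scaled library size, over the 6 libraries, 33 of the 82 genes lay at 100 or more, 43 lay under 10, and 6 lay between. Over all accessions 27.8% lay between 10 and 100 CPM, against 7.32% of the subunit genes. In complex I, 17 genes had means of 157 CPM or more, 19 had means of 6.26 CPM or less, and 0 lay between. Per kilobase of transcript, the lowest of the 17 had 62.2 CPM and the highest of the 19 had 13.4 CPM. Complex V was divided in the same way, with 9 genes at 585 CPM per kilobase or more and 8 at 10.1 CPM per kilobase or less. The division is one of means, which a single library can set. Ndufa1, of the high set, had 4239.9 CPM in control 2 and 14.3 to 98.1 CPM in the other libraries. In complex V, Atp5g2 had 9810.3 CPM in control 2 and 12.7 CPM in control 3, so single libraries fall in the gap.

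Counts tell the same in reads. A mean of at least 1000 counts was reached by 32 of the 82 genes, or 39%, against 8.15% of all accessions. At the other end, 28 genes never exceeded 100 counts in any library, which is 34.1% against 44.0% of all accessions. Subunits at the heart of the enzymes were among those 28. The flavoprotein core subunit Ndufv1 had 1 to 6 counts, the iron-sulphur subunit Ndufs8 1 to 4, the complex IV subunit Cox5b 1 to 4, and the F1 subunits Atp5a1 and Atp5c1 2 to 15 and 1 to 17. Cycs, the electron carrier between complexes III and IV, had 2 to 16 counts, or 0.290 to 1.88 CPM.

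**Figure D1:**
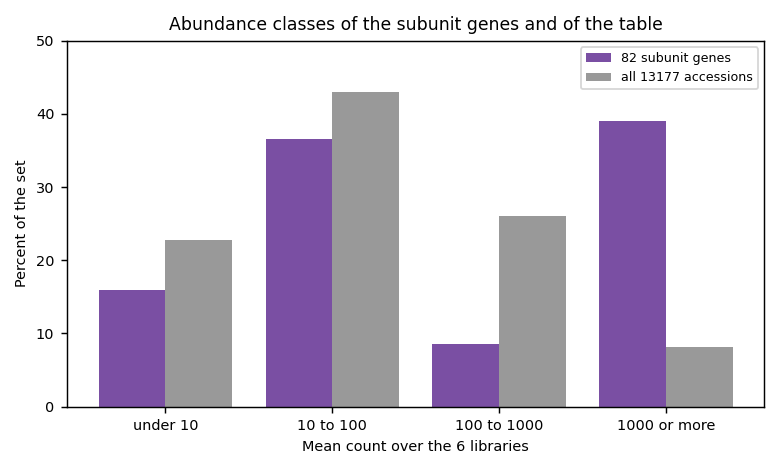
Share of the 82 subunit genes (purple) and of all 13177 accessions (grey) in classes of mean count over the 6 libraries, in percent of each set. The subunit genes are scarce between 100 and 1000 counts (8.54% against 26%) and frequent at 1000 or more (39% against 8.15%).

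Subunit genes also differed widely between libraries. Among the 68 tested genes with counts in every library, the highest library exceeded the lowest by a median of 29.3 times in CPM, against 30.2 times over 7157 accessions. This median was 51.2 in complex I, 9.32 in complex II, 25.8 in complex III, 21.3 in complex IV and 131 in complex V. Ndufs5, an accessory subunit of complex I with only 4 to 19 counts, was the steadiest at 4.36. Atp5g2, which encodes the c subunit of the ATP synthase, was the least steady at 774. The ratio rose with count level, so differences between genes or complexes partly follow their counts. At a mean of 10 to 100 counts its median was 12.1 over 30 subunit genes and 15.6 over 3140 accessions. At a mean of 1000 counts or more the median ratio was 152 over 32 subunit genes and 109.5 over 1048 accessions. These ratios span both groups. Within a group, the 68 genes had a median ratio of 8.04 in controls and 9.14 at 8 h, against 9.51 and 9.88 over the 7157 accessions.

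The gene with the most counts changed from library to library. Of the counts on all 82 genes, Atp5e took 19.3% in control 1, Atp5g2 26.2% in control 2 and Ndufa2 14.7% in control 3. At 8 h, Ndufa13 took 15.8% in replicate 1, and Ndufv3 took 23% in replicate 2 and 18.5% in replicate 3. In each library, 3 genes together held between 36.7% and 60.8% of the counts on the 82 genes. The tested genes had their highest value in all 6 libraries: 10, 12 and 6 of them in controls 1, 2 and 3, and 13, 13 and 15 in 8 h replicates 1, 2 and 3.

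**Figure D2:**
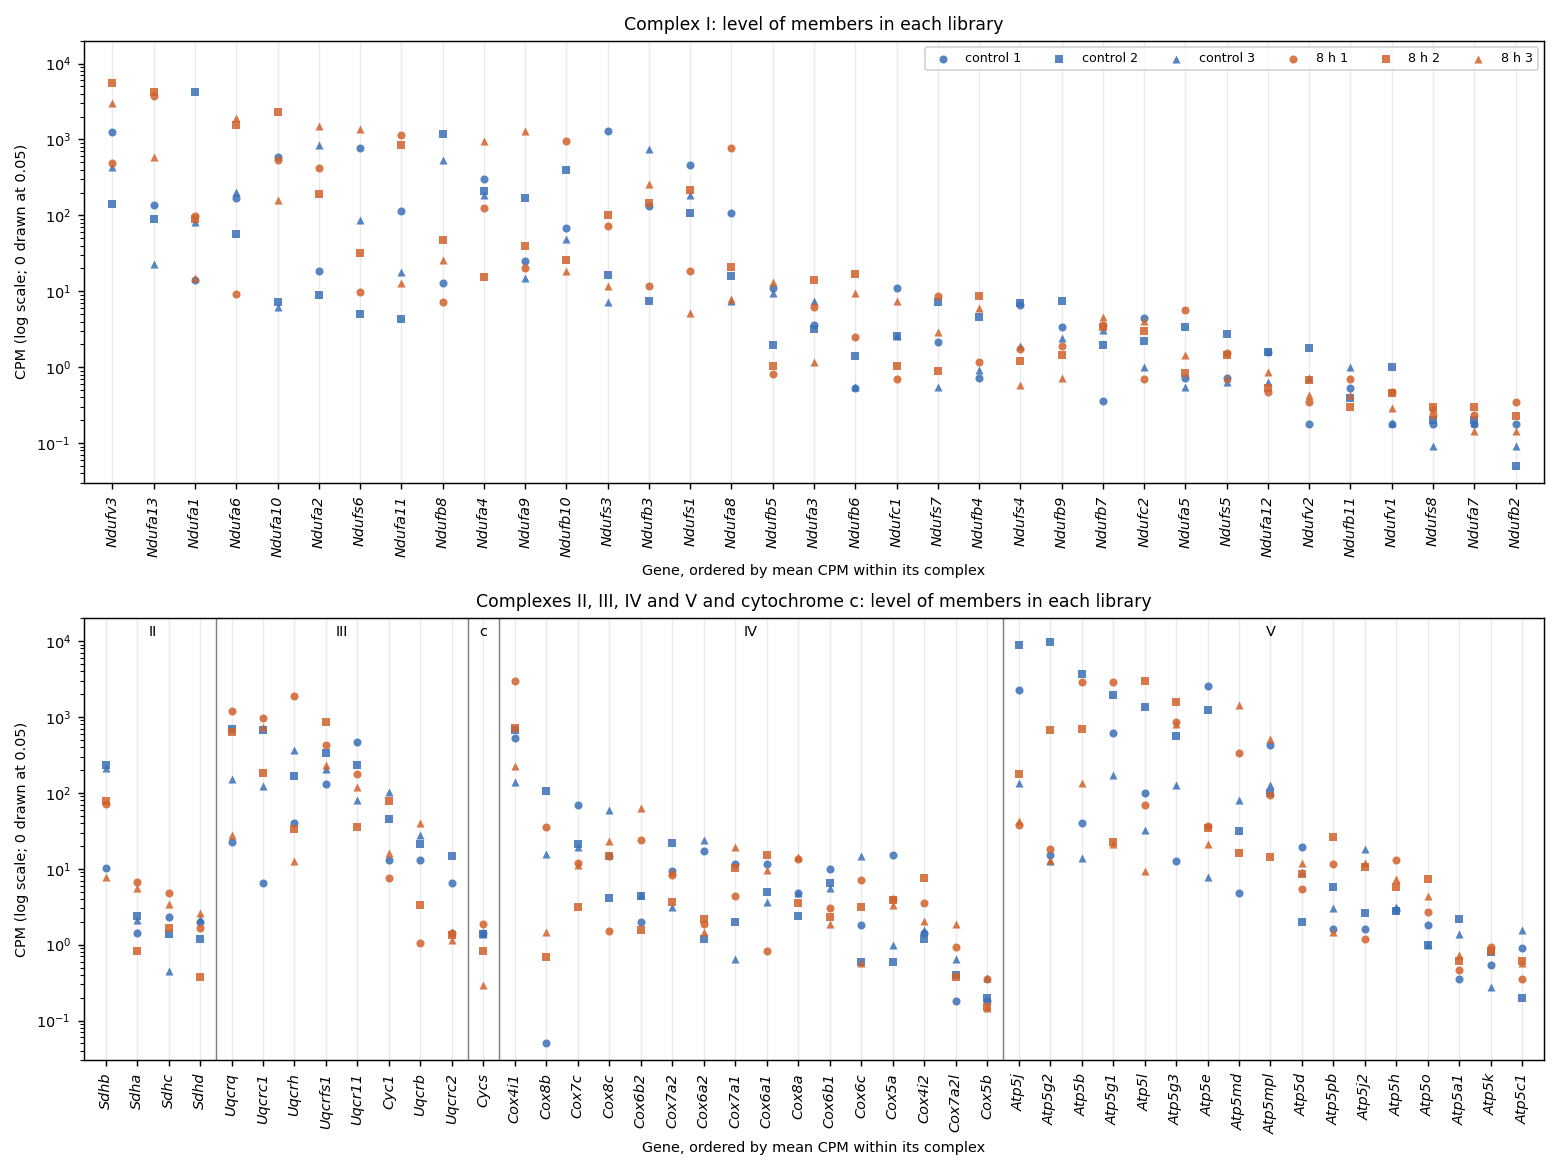
CPM of the subunit genes in each library on a log axis, with 1 gene not shown, controls in blue and 8 h in orange, with the replicate given by the symbol's shape and genes ordered by mean CPM within their complex. In complexes I and V the means part into a high and a low set, with no mean between 10 and 100 CPM. Single libraries of genes in the high set do lie in that range, and points of one colour often lie over 10-fold apart.

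All subunit genes together took 1.14%, 4.13% and 0.518% of the counts in controls 1, 2 and 3, and 2.36%, 2.37% and 1.82% at 8 h. The means were 1.93% ± 1.93 (SD, n = 3) and 2.18% ± 0.315 (SD, n = 3), and the control libraries lay on both sides of the 8 h libraries. Without control 2 the control mean was 0.829%.

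Complex I took a larger share at 8 h in every library. Its genes held 0.493%, 0.743% and 0.311% of control counts and 0.854%, 1.51% and 1.31% of those at 8 h, a mean of 0.516% ± 0.217 (SD, n = 3) against 1.22% ± 0.335 (SD, n = 3), or 2.37 times as much. The groups did not overlap, but the gap rested on few genes. Without Ndufa13 the 8 h shares were 0.48%, 1.1% and 1.24% and overlapped the controls, which were at 0.481%, 0.733% and 0.309%. When each of the 36 genes was left out in turn, the groups stayed apart for 34 and overlapped without Ndufa11 or without Ndufa13. Outside the 100 most abundant accessions of each library, complex I took 1.05% of the remaining counts in controls and 1.04% at 8 h on average, with overlapping groups. The summed shares of cytotoxic and of red cell markers separated the same libraries in the other direction, though not every gene did, as given above. Their part was not tested.

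The other complexes overlapped between the groups. Complex V took 0.526%, 3.03% and 0.0661% in controls against 0.723%, 0.605% and 0.337% at 8 h, and control 2 owed much of its share to Atp5g2 and Atp5j, without which it held 0.983%. Complex III took 0.0602%, 0.24% and 0.0942% in controls and 0.466%, 0.178% and 0.13% at 8 h. Complex IV took 0.0598%, 0.0936% and 0.0265% in controls and 0.307%, 0.0761% and 0.0427% at 8 h. Complex II took the smallest share of the complexes, 0.00138%, 0.026% and 0.0191% in controls and 0.0085%, 0.0079% and 0.00215% at 8 h.

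**Figure D3:**
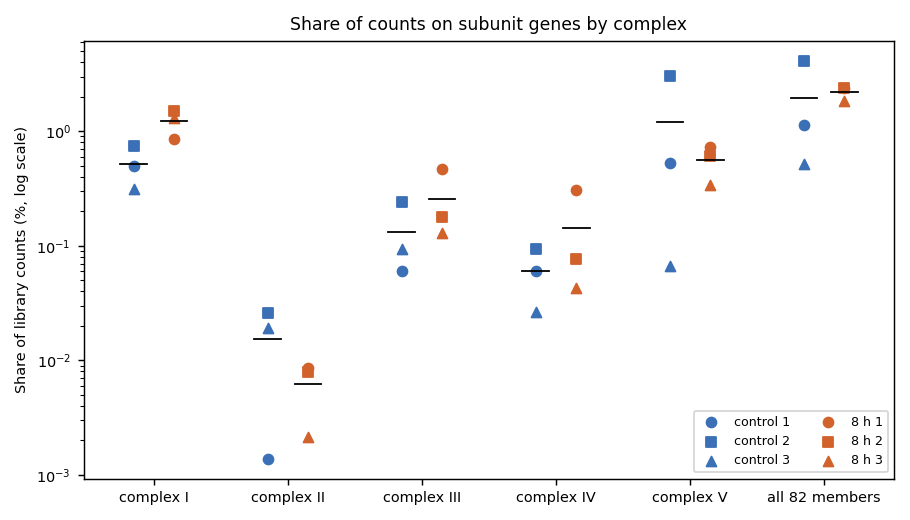
Share of each library's counts on the subunit genes of complexes I to V and of all 82 genes, in percent on a log axis, controls in blue and 8 h in orange, with a line at each group's mean. Complex I is the set in which every 8 h library (0.854% to 1.51%) lies above every control (0.311% to 0.743%).

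No subunit gene passed the test between 8 h and control. With edgeR's quasi-likelihood test and Benjamini-Hochberg adjustment over 8308 accessions, 0 of the 69 tested subunit genes had an adjusted p under 0.05, and the same held for 0 of all accessions (0%), whose lowest adjusted p was 0.316. The 69 genes had adjusted p-values from 0.544 to 0.999. The other 13 genes did not pass the filter on low counts, which kept 84.1% of the subunit genes and 63% of all accessions. The biological coefficient of variation was 1.22.

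At an unadjusted p under 0.05, edgeR gave 1 higher subunit gene, Ndufb6, against a background of 4.51% of accessions higher, and 2 lower, Atp5e and Atp5j, against 4.02% lower. DESeq2, run as an alternative, called 399 accessions at an adjusted p under 0.05, 2.34% higher and 2.47% lower at 8 h. Among them were 5 subunit genes: Ndufa13 (adjusted p = 0.0108) and Ndufb6 (0.0383) higher, and Ndufb8 (0.0436), Atp5e (0.016) and Atp5j (0.0141) lower. DESeq2 gave 12 of the 69 genes no adjusted p. None of these 5 was called by edgeR or limma-voom.

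Groups did not overlap in CPM for 7 tested subunit genes that were higher at 8 h, where 5.72% of tested accessions behaved so, and for 5 that were lower, where 5.08% did. The higher genes were Ndufa13, Ndufb6, Ndufb7, Cox4i2, Atp5g3, Atp5h and Atp5o, and the lower genes were Ndufb9, Ndufs4, Uqcrc2, Cox6b1 and Cox7c. By the sign of the fitted log2 fold change (8 h minus control), 39 of the 69 genes were higher and 30 lower, or 56.5% higher against 51.3% of all accessions. The median log2 fold change was 0.35 for the subunit genes and 0.06 for all accessions. It was -0.05 without 8 h replicate 3.

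**Figure D4:**
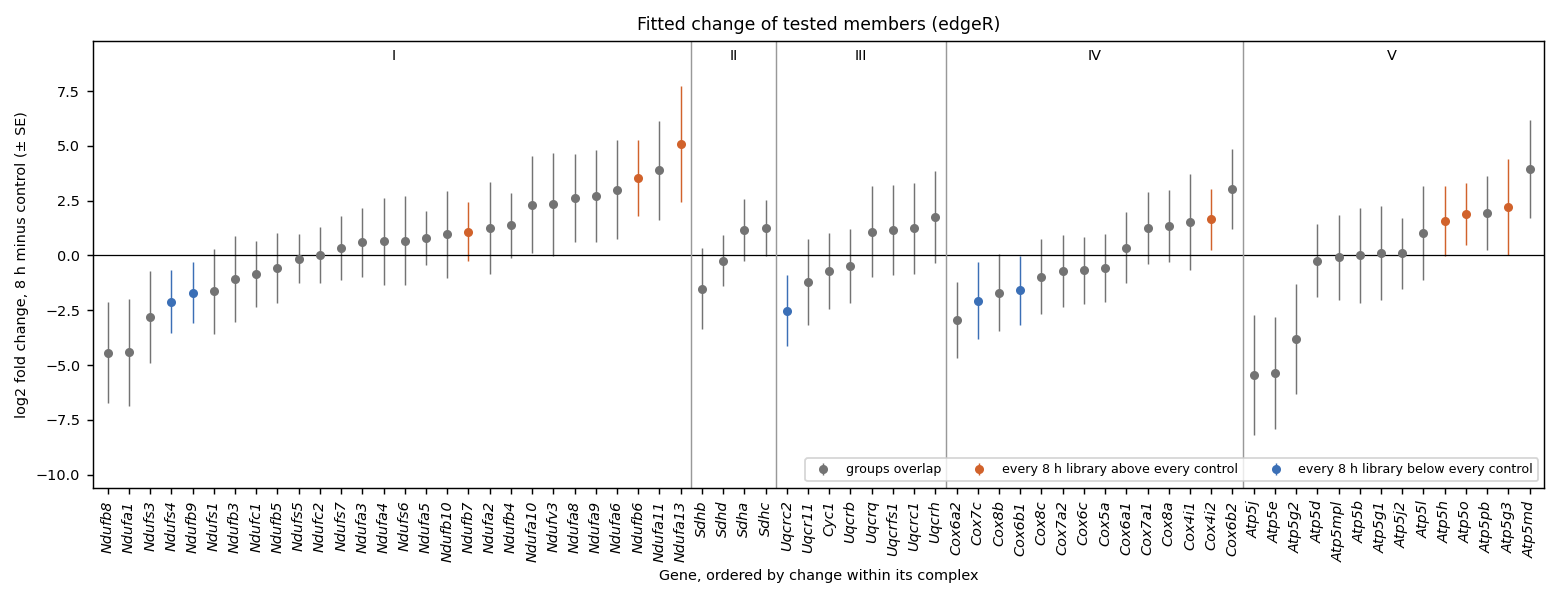
Fitted log2 fold change (8 h minus control, edgeR) of the tested genes, with 1 gene not shown and bars of ± 1 standard error, ordered within each complex. Orange marks the 7 genes whose 8 h libraries all lie above the controls, blue the 5 whose 8 h libraries all lie below, and grey the genes whose groups overlap; the largest changes, of about 5, have the longest bars.

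Complex I was the complex with the most genes on the higher side. Of its 29 tested genes, 19 were higher and 10 lower, with a median log2 fold change of 0.68 that was -0.01 without 8 h replicate 3. The core subunits, which hold the flavin and the iron-sulphur clusters and which bacteria also have, and the accessory subunits, which surround them, were counted apart. Of the 7 nuclear core genes, 4 were tested, with 2 higher and 2 lower and a median of -0.64. Of the 28 accessory genes, 24 were tested, with 16 higher and 8 lower and a median of 0.88. With 4 tested core genes, the balances of the 2 sets cannot be told apart. These roles were assigned after values had been seen, so they describe and do not test.

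Among the core genes, Ndufs7, Ndufs8, Ndufv1 and Ndufv2 never exceeded 100 counts, and Ndufs1 and Ndufs3 were among the abundant ones. Ndufs1, the largest iron-sulphur subunit, had 459.8, 107 and 186 CPM in controls and 18.4, 217 and 5.22 CPM at 8 h. Ndufs3 had 1291, 16.5 and 7.3 CPM in controls and 72.2, 102 and 11.7 CPM at 8 h. Both overlapped between groups, and Ndufs3 owed its high control mean to control 1.

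Ndufa13, also known as GRIM-19, is an accessory subunit of the membrane arm that was also described as a regulator of cell death and of STAT3. It had the largest positive fold change of all subunit genes. Its level was 137, 90.7 and 23 CPM in controls 1, 2 and 3 and 3747, 4165 and 596 CPM at 8 h. Every 8 h library lay above every control, and the mean of 2836 ± 1951 CPM (SD, n = 3) was 34 times the control mean of 83.4 ± 57.1 CPM (SD, n = 3). Its fitted log2 change was 5.09 ± 2.63 (SE), and the adjusted p was 0.595 in edgeR and 0.0108 in DESeq2. It stayed between 4.67 and 5.66 when each library was left out in turn. The gene lies on chr8:69894163-69902558 (GRCm38) and overlaps the annotated genes Yjefn3, on the same strand, and Tssk6, on the other, so its reads may include those of Yjefn3 even if strand was used.

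Ndufb6, a small accessory subunit of the membrane arm, was also apart between groups but at very low counts. It had 0.536, 1.39 and 0.547 CPM in controls and 2.47, 17 and 9.42 CPM at 8 h, with 3 counts in its lowest library. The fitted change on the log2 scale was 3.54 ± 1.73 (SE), at an edgeR adjusted p of 0.555. Ndufb7, another membrane-arm subunit, had 0.358, 1.99 and 3.1 CPM in controls and 3.64, 3.39 and 4.64 CPM at 8 h. Its groups were apart by little, and its log2 fold change of 1.08 ± 1.35 (SE) was 0.59 without control 1 (adjusted p = 0.851 in edgeR with all libraries).

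The lower accessory genes of complex I included one with high and 2 with low counts. Ndufb8, a membrane-arm subunit often used as an antibody marker of assembled complex I, had 12.7, 1186 and 535 CPM in controls and 7.28, 46.8 and 25.5 CPM at 8 h. Control 1 lay within the 8 h range, so the groups overlapped, although the log2 fold change of -4.44 ± 2.3 (SE) was the most negative of complex I (adjusted p = 0.595 in edgeR). Ndufs4, a matrix-arm subunit whose loss causes Leigh syndrome in humans, had 6.61, 6.96 and 1.92 CPM in controls and 1.76, 1.2 and 0.58 CPM at 8 h, a log2 fold change of -2.1 ± 1.45 (SE) at an edgeR adjusted p of 0.69. Ndufb9 had 3.4, 7.36 and 2.46 CPM in controls and 1.88, 1.43 and 0.725 CPM at 8 h. For Ndufs4 and Ndufb9 every 8 h library lay below every control.

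Ndufv3, a small subunit next to the flavin site, was the most abundant gene of complex I in mean CPM and per kilobase. It had 1239.6, 143 and 431 CPM in controls and 493, 5624 and 3045 CPM at 8 h. The groups overlapped, and the log2 fold change was 2.34 ± 2.35 (SE) at an edgeR adjusted p of 0.802. Without it the complex I share was still higher in every 8 h library, at 0.805% to 0.973% against 0.273% to 0.727%. Single libraries set the level of other genes: Ndufa1, a membrane-arm subunit, had 4239.9 CPM in control 2 and between 14.3 and 98.1 CPM in the other libraries, and Ndufa11 had 1142 and 857 CPM in 8 h replicates 1 and 2 and between 4.37 and 113 CPM elsewhere.

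Complex II, succinate dehydrogenase, belongs to the citric acid cycle as well as to the respiratory chain and is built of nuclear-encoded subunits alone. Of its 4 genes, 2 were higher and 2 lower, and every one overlapped between groups. Sdhb, the iron-sulphur subunit, had 10.2, 231 and 210 CPM in controls and 72.1, 78.5 and 7.68 CPM at 8 h, and took most of the complex's counts in 5 libraries and 39.6% in 8 h replicate 3. Sdha, the flavoprotein that oxidizes succinate, had 1.43, 2.39 and 2.1 CPM in controls and 6.69, 0.828 and 5.65 CPM at 8 h. The membrane anchor Sdhc had 2.32, 1.39 and 0.456 CPM in controls and 4.81, 1.66 and 3.48 CPM at 8 h, and the other anchor, Sdhd, stayed between 0.377 and 2.61 CPM. Sdhb lay at a log2 fold change of -1.51 ± 1.85 (SE) and Sdhc at 1.26 ± 1.28 (SE), with adjusted p-values of 0.849 and 0.807 in edgeR.

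Complex III passes electrons from ubiquinol to cytochrome c. Of its 8 genes, 4 were higher and 4 lower, and the median log2 fold change of 0.3 was -0.08 without 8 h replicate 1, -1.04 with a replicate block and -0.69 in limma-voom. The most abundant were Uqcrq, a small subunit that had 22.2, 694 and 153 CPM in controls and 1181, 634 and 28 CPM at 8 h, and Uqcrc1, a core protein that had 6.44, 666 and 122 CPM in controls and 980.2, 181 and 728 CPM at 8 h. Uqcrfs1, the Rieske iron-sulphur protein that takes electrons from ubiquinol, was the steadiest gene of the complex, with 129.8, 338 and 205 CPM in controls and 422, 869 and 232 CPM at 8 h. These 3 genes overlapped between groups.

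Uqcrc2, the partner of Uqcrc1 in the core of complex III, had a low level and was the gene of the complex with separate groups. It had 6.44, 14.7 and 1.46 CPM in controls and 1.41, 1.36 and 1.16 CPM at 8 h, so control 3 lay just above the highest 8 h library. The log2 fold change was -2.51 ± 1.6 (SE) at an edgeR adjusted p of 0.659, and it was -1.55 without control 2. Uqcrc1 and Uqcrc2 form a heterodimer, but their fitted changes had opposite signs: Uqcrc1 lay at 1.25 ± 2.08 (SE), and between 0.67 without control 1 and 3.26 without control 2. The difference between them was not tested.

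Uqcrh, the hinge protein that binds cytochrome c1, had the largest positive fold change of complex III, and its direction rested on one library. It had 39.9, 165 and 366 CPM in controls and 1901, 33.2 and 12.6 CPM at 8 h. Its log2 fold change was 1.77 ± 2.1 (SE; adjusted p = 0.843 in edgeR) and -3.05 without 8 h replicate 1. Cyc1, which carries the haem of cytochrome c1, had 12.9, 45.9 and 104 CPM in controls and 7.63, 77 and 15.9 CPM at 8 h, with overlapping groups. Cycs was not tested, since its counts did not pass the filter.

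Complex IV, cytochrome c oxidase, was led by the same gene in every library. Cox4i1, the ubiquitous form of subunit 4, took 46.7% to 96.1% of the complex's counts. It had 520.3, 673 and 139 CPM in controls and 2958, 711 and 223 CPM at 8 h, with overlapping groups and a log2 fold change of 1.55 ± 2.19 (SE; adjusted p = 0.876 in edgeR) that was 0.1 without 8 h replicate 1. Of the 14 tested genes 6 were higher and 8 lower, and the median log2 fold change of -0.62 turned positive without any one control (0.09, 0.2 and 0.29 without controls 1, 2 and 3).

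Several subunits of complex IV have a ubiquitous form and a form that is known from muscle, lung or testis. Cox4i2, the lung form of subunit 4, which is also known from cells under low oxygen, had 1.43, 1.19 and 1.55 CPM in controls and 3.52, 7.61 and 2.03 CPM at 8 h. Every 8 h library lay above every control, with a log2 fold change of 1.65 ± 1.39 (SE; adjusted p = 0.755 in edgeR) that was 0.98 without 8 h replicate 2. Of subunit 6a, the ubiquitous Cox6a1 had 11.6, 4.97 and 3.65 CPM in controls and 0.822, 15.3 and 9.71 CPM at 8 h. The heart and muscle form, Cox6a2, had 17.3, 1.19 and 24 CPM in controls and 1.88, 2.18 and 1.45 CPM at 8 h, the most negative log2 fold change of the complex at -2.94 ± 1.75 (SE; adjusted p = 0.643 in edgeR). Control 2 lay below all 8 h libraries, so its groups overlapped.

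The forms of subunit 6b had fitted changes of opposite sign. Cox6b1, the ubiquitous form, had 9.83, 6.56 and 5.66 CPM in controls and 3.05, 2.33 and 1.88 CPM at 8 h, with every 8 h library below every control and a log2 fold change of -1.59 ± 1.57 (SE; adjusted p = 0.799 in edgeR). Cox6b2, the testis form, had 1.97, 4.37 and 4.56 CPM in controls and 23.9, 1.58 and 63.3 CPM at 8 h. Its log2 fold change of 3.02 ± 1.83 (SE; adjusted p = 0.646 in edgeR) was 1.81 without 8 h replicate 3. Replicate 2 at 8 h lay below all controls, and the difference between the forms was not tested.

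Subunits 7 and 8 had levels of at most 105 CPM in any library. Cox7c, a small ubiquitous subunit, had 69.7, 21.1 and 19.6 CPM in controls and 11.9, 3.16 and 11.3 CPM at 8 h, so the groups were apart. Its log2 fold change of -2.07 ± 1.76 (SE; adjusted p = 0.762 in edgeR) was -1.23 without control 1. Cox7a1, the muscle form of subunit 7a, ranged from 0.638 to 19.3 CPM, Cox7a2, the ubiquitous form, from 3.1 to 22.1 CPM, and Cox7a2l, which is known from supercomplex assembly, from 0.179 to 1.88 CPM. The ubiquitous Cox8a ranged from 2.39 to 14.2 CPM, the muscle form Cox8b from 0 to 105 CPM and the testis form Cox8c from 1.53 to 58.7 CPM. Summed over the 6 tissue-restricted forms, libraries had 37.1 to 118 CPM, against 156 to 2984 CPM over the 5 ubiquitous forms of the same subunits. Cox4i1 took 86.5% to 99.2% of the latter, and the 4 ubiquitous forms without it had 17.2 to 36 CPM, below the tissue-restricted sum in every library.

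The ATP synthase has an F1 head that makes ATP, a ring of c subunits that turns in the membrane, and a peripheral stalk that holds the head still. Of its 14 tested genes, 8 were higher and 6 lower, with a median log2 fold change of 0.1 and a range from -5.45 to 3.95. The median was 1.66 without control 2, 0.6 without control 1, and 0.39 to 0.56 without one of the 8 h replicates. Both ends of that range belonged to small subunits.

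In the F1 head, the counts lay on Atp5b and Atp5e. Atp5b, the catalytic beta subunit, had 40.4, 3634 and 14 CPM in controls and 2853, 689.6 and 136 CPM at 8 h, and its fitted log2 change was 0 ± 2.19 (SE), but 5.5 without control 2. Atp5a1, its alpha partner in the hexamer, had at most 2.19 CPM in any library. Atp5e, the epsilon subunit of the central stalk, had 2539.9, 1243 and 7.84 CPM in controls and 36.9, 34.1 and 21 CPM at 8 h. It is described because DESeq2 called it, and was chosen after its values were seen. Control 3 lay below all 8 h libraries, so the groups overlapped, with a log2 fold change of -5.36 ± 2.54 (SE) at adjusted p-values of 0.544 in edgeR and 0.016 in DESeq2. The gene lies on chr2:174461075-174464101.

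The c ring is made from 3 genes, Atp5g1, Atp5g2 and Atp5g3, whose precursors differ while the mature protein is the same. Atp5g1 had 607, 1972 and 169.6 CPM in controls and 2906, 22.4 and 21.2 CPM at 8 h. Atp5g2 had 15, 9810.3 and 12.7 CPM in controls and 18.1, 676 and 12.9 CPM at 8 h. Atp5g3 had 12.5, 560.1 and 127 CPM in controls and 869, 1562 and 803 CPM at 8 h. So Atp5g1 took most of the ring's CPM in controls 1 and 3 (95.7% and 54.9%) and in 8 h replicate 1 (76.6%), Atp5g2 in control 2 (79.5%), and Atp5g3 in 8 h replicates 2 and 3 (69.1% and 95.9%).

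Atp5g3 was the c ring gene whose groups did not overlap. The fitted log2 change was 2.21 ± 2.2 (SE; adjusted p = 0.801 in edgeR), and 3.93 without control 2, the one control near the 8 h libraries. The summed CPM of the 3 genes overlapped between groups, at 634, 12343 and 309 in controls and 3793, 2259.7 and 837 at 8 h. The mean sum was 4429 ± 6856 CPM (SD, n = 3) before and 2297 ± 1478 CPM (SD, n = 3) after transfection. Since the 3 genes encode one mature protein, reads of their shared coding sequence may be split between them by the counting.

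**Figure D5:**
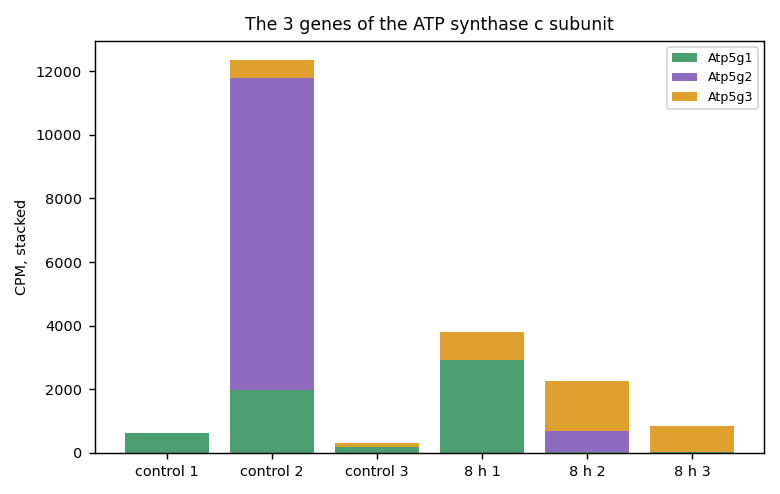
Stacked CPM of Atp5g1 (green), Atp5g2 (purple) and Atp5g3 (gold) in each library. The leading gene differs between libraries, with Atp5g2 at 9810.3 CPM in control 2 alone, and Atp5g3 is above 800 CPM in each 8 h library and at most 560.1 CPM in a control.

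The peripheral stalk was led by Atp5j, which encodes coupling factor 6, in every library, with 58% to 99.9% of the stalk's CPM. Atp5j had 2291, 8759 and 133 CPM in controls and 37.4, 176 and 42.2 CPM at 8 h. Its log2 fold change of -5.45 ± 2.72 (SE) was the most negative of all subunit genes, and the adjusted p was 0.572 in edgeR and 0.0141 in DESeq2. The groups overlapped, since control 3 lay below 8 h replicate 2, and the fold change was -3.78 without control 2. The gene lies on chr16:84827871-84835857 and overlaps Gabpa, which encodes a transcription factor of nuclear mitochondrial genes, so reads of both could have been counted together. Gabpa itself was given 2 to 23 counts in a library, against 291 to 44053 for Atp5j, and the effect of the overlap was not tested.

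The other genes of the stalk were on the other side. Atp5h, the d subunit, had 2.86, 2.78 and 3.1 CPM in controls and 12.9, 5.72 and 7.39 CPM at 8 h. Atp5o, the oligomycin sensitivity subunit that joins stalk and head, had 1.79, 0.994 and 1 CPM in controls and 2.7, 7.23 and 4.35 CPM at 8 h. In both genes every 8 h library lay above every control, with log2 fold changes of 1.57 ± 1.61 (SE) and 1.91 ± 1.42 (SE) and adjusted p-values of 0.807 and 0.716 in edgeR. Atp5pb, the b subunit, had 1.61 to 5.77 CPM in controls and 1.45 to 26.5 CPM at 8 h, with overlapping groups. Summed over its 4 genes the stalk averaged 3735 ± 4490.2 CPM (SD, n = 3) in controls, against 112 ± 90 CPM (SD, n = 3) at 8 h, a sum that Atp5j sets.

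Of the small subunits in the membrane, Atp5md had the largest positive fold change. It had 4.83, 31.6 and 79.6 CPM in controls and 330, 16.3 and 1444 CPM at 8 h, a log2 fold change of 3.95 ± 2.25 (SE; adjusted p = 0.621 in edgeR) that was 2.15 without 8 h replicate 3. Its protein, also called DAPIT, is known for holding ATP synthase dimers together. Replicate 2 at 8 h lay below controls 2 and 3, so the groups overlapped.

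Other genes of the pathway gave no call in edgeR either. Of 46 listed assembly factors, 33 had a row and 28 were tested, with 0 past the threshold, 15 higher, 13 lower and a median log2 fold change of 0.38. Their most abundant gene was Cox17, the copper chaperone of complex IV, with 16.6, 6.36 and 42.7 CPM in controls and 3619, 19.7 and 2746 CPM at 8 h. Replicates 1 and 3 at 8 h stood far above the rest while replicate 2 lay among the controls, with a log2 fold change of 6.6 ± 2.77 (SE; adjusted p = 0.51 in edgeR and 0.00326 in DESeq2). Of the 20 genes of the citric acid cycle and pyruvate entry, 17 were tested, with 11 higher, 6 lower and a median of 0.43. Suclg1, a subunit of succinyl-CoA ligase, led them with 3751, 43.9 and 37.8 CPM in controls and 1039.8, 962 and 1773 CPM at 8 h.

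Genes of antioxidant defence, which removes the superoxide and peroxide that the chain gives off, gave 7 tested genes, with 4 higher and 3 lower. Prdx3, the mitochondrial peroxiredoxin, had 7.33, 8.55 and 6.11 CPM in controls and 625, 1317 and 10.3 CPM at 8 h, so every 8 h library lay above every control. On the log2 scale the fitted change was 6.47 ± 2.55 (SE), and the adjusted p was 0.471 in edgeR and 0.00147 in DESeq2. Of the lists for ubiquinone synthesis, regulators of mitochondrial biogenesis, and carriers and channels, 9, 9 and 8 genes were tested and 0 were called, with medians of 0.1, 0.33 and 0.22. Their most abundant genes were Coq9 with 5.65 to 290.5 CPM, Tfam, which packs and transcribes mitochondrial DNA, with 3.37 to 242 CPM, and the phosphate carrier Slc25a3 with 821 to 7517 CPM. All 3 overlapped between groups. A short list of subunits and partners outside the rule gave 5 tested genes, all 5 on the higher side with 0 called, and Higd2a, a complex IV partner, led it with 9.71 to 1283 CPM.

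Sites for the transferred miR-155 were looked for in 3′ UTRs, taking the longest that GENCODE M21 annotates for a gene. The 7-base motifs AGCATTA, which pairs with the seed, and GCATTAA, which pairs with bases 2 to 7 followed by A, were searched on the transcript strand, and where they overlap the site is an 8-base match. A site was found in 11 of the 80 subunit genes with an annotated UTR, or 13.8%, against 12.4% of 12613 accessions. The UTRs of the subunit genes are short, with a median of 192 bases against 979. The sites below are the 3 of full 8-base match and the site of Ndufb8, the gene with a site and the largest negative fold change. The UTR searched for Ndufb8 has 1643 bases with the site at base 978, but its counted transcript has 680 bases. For Atp5g1 the UTR has 4252 bases and the counted transcript 596. The sites of Atp5g1 and Sdhc lie outside the RefSeq spans of these genes. Whether the counted transcripts hold these sites was not tested. Capitals mark the match, and the sequence is that of the transcript.
Ndufs1, chr1:63143628-63143657, minus strand: aattgtgtgcaAGCATTAActagtttaata
Ndufb5, chr3:32749042-32749071, plus strand: agaatgtcattAGCATTAAgtcaggtgggt
Uqcr11, chr10:80403007-80403036, minus strand: ttgatgggtgcAGCATTAAaccttattctt
Ndufb8, chr19:44549220-44549248, minus strand: gctttaatcccAGCATTAggaaggagaag

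The 3 genes with 8-base sites had negative fitted changes within their error. Ndufs1 lay at -1.64 ± 1.94 (SE), Ndufb5, a membrane-arm subunit of complex I, at -0.58 ± 1.59 (SE), and Uqcr11, a small subunit of complex III, at -1.21 ± 1.94 (SE), with adjusted p-values of 0.841, 0.945 and 0.89 in edgeR. With one library left out, Ndufs1 ranged from -4.4 to -0.85, Ndufb5 from -2.95 to -0.08 and Uqcr11 from -1.71 to -0.49. Over the 9 tested genes with a site, 3 were higher and 6 lower, with a median log2 fold change of -0.58, against 0.62 over 58 subunit genes without one. Over all tested accessions the medians were -0.03 with a site (862) and 0.07 without (7099). With 9 genes and none called, the difference among subunit genes is a description. Ndufb8, Atp5g1 and Sdhc, whose counted transcripts may lack the site, are among the 9. A match is a stretch of letters and does not show that the site is used.

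Promoters were searched because nuclear genes of the respiratory chain are known to share binding motifs of a few transcription factors. Windows from 250 bases before to 50 after the start (RefSeq, GRCm38.p6) were given for 66 of the 82 genes, and 26 of them held at least 1 of 4 motifs on either strand, with 0 overlaps between motifs. The NRF1 motif, the run of 10 capitals in the windows below, was in 5 of 66 (7.6%), against 1.6% of 10176 genes of the count table and 1.0% of 27025 promoters in all. The YY1 motif AAGATGGCG was in 6 (9.1%), against 2.6% of the table's genes. The GABPA motif CCGGAAG was in 16 (24.2%) against 14.9%, and the ERR alpha motif TCAAGGTCA in 2 (3.0%) against 0.3%. Base composition was close, with a median GC content of 58.5% in the subunit genes and 59.3% in the table's genes.

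The 5 promoters with an NRF1 motif belong to genes of complexes I, III, IV and V, and their windows are printed to show the shared motif. Capitals mark it, and each runs along its gene's strand.
Ndufa11, chr17:56717692-56717721, plus strand: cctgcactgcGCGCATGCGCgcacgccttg
Uqcrc1, chr9:108936668-108936697, plus strand: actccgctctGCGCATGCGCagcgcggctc
Cox6a1, chr5:115349101-115349130, minus strand: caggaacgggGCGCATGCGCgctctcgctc
Atp5g2, chr15:102671070-102671099, minus strand: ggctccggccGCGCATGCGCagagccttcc
Atp5k, chr5:108434430-108434459, minus strand: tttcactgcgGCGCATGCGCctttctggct

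The genes that share this motif did not share a pattern of levels. Ndufa11 was highest in 8 h replicate 1, Uqcrc1 in the same library, Cox6a1 in 8 h replicate 2 and Atp5g2 in control 2, while Atp5k stayed between 0.274 and 0.939 CPM. Their tested fold changes were 3.89 ± 2.27 (SE) for Ndufa11, 1.25 ± 2.08 (SE) for Uqcrc1, 0.35 ± 1.62 (SE) for Cox6a1 and -3.8 ± 2.5 (SE) for Atp5g2. The last was 4.12 without control 2, and that of Cox6a1 was -0.35 without 8 h replicate 2. Atp5k, the e subunit of the ATP synthase, did not pass the filter on low counts.

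How reads were assigned limits these values for part of the genes. Of the 82 genes, 19 overlap another annotated coding gene, among them Ndufa13, Ndufb6 (with Smim27), Uqcrc2 (with Pdzd9), Cox4i1 (with Emc8), Cox6a2 (with Itgad) and Atp5j. The labels do not state whether counting used strand or how reads with several matches were treated. Many genes of the respiratory chain have processed pseudogenes, so counts of a gene and of its near copies may not be separate.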

How the data were processed

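Total RNA (PAXgene kit) was sequenced from TruSeq libraries in single reads 50 bases long, per the labels' protocols. The deposited table holds whole-number counts of reads for each RefSeq accession and library, as its authors gave them. The submitters' processing notes list Bowtie, R 3.4.2 and GRCm38. Which program counted, how it treated strand and multiply matching reads, and whether rows were filtered is not given in the sources used here.

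Symbols came from RefSeq (GRCm38.p6, 12827 accessions) or GENCODE M21 (47), and 303 accessions stayed unnamed. The 2 groups were tested with edgeR 4.0.16 under R 4.3.3 (TMM, filterByExpr, robust quasi-likelihood F test in its legacy form, two-sided, group as the only term), with Benjamini-Hochberg adjustment over 8308 accessions at 0.05. Each standard error is the size of the fitted log2 change divided by the root of its F, and CPM use TMM-scaled library sizes. The script was tested on simulated data. Alternatives were RLE and upper-quartile scaling, no filter, a mean CPM of at least 5, a replicate block, DESeq2 1.42.0, limma-voom (limma 3.58.1), the newer quasi-likelihood form, and leaving out each replicate. Counts carry no molecular identifiers.

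The members, lists and tests were chosen with earlier results of these data known. Named members were those past the threshold, per complex the 2 highest in mean CPM and the largest positive and negative fold changes, those with groups that did not overlap, all of complex II, Cyc1, Cycs and isoform genes, and of each pathway list the gene with the highest mean CPM. Any other gene named, and the structural roles, were picked with values in view. A gene of complex I is not reported here by name, and it stays in the counts, sums and shares.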

Additional observations from a re-analysis of the deposited data

How the results depend on the processing

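At an adjusted p under 0.05, edgeR called 0 accessions and 0 subunit genes with all libraries, under RLE or upper-quartile scaling, without a filter, at a mean CPM of at least 5, with the newer quasi-likelihood form and with each replicate left out, against 399 accessions and 5 subunit genes in DESeq2. Run once, with all libraries and the same filter, limma-voom called 0 of both. With the replicate block the count was also 0, with 267 accessions at an unadjusted p under 0.05 against 709 without it. Deviations of same-numbered libraries from their group means correlated at -0.0107, 0.0151 and -0.0039, so no pairing by number was seen. With so few libraries and so wide a spread, a real pairing could go unseen. The median log2 fold change of the subunit genes, 0.35, was 0.64 at a mean CPM of at least 5, where fewer genes were tested, and ranged from -0.05 to 0.76 with a replicate left out. The complex III median, 0.3, was -1.04 with the replicate block and -0.69 in limma-voom, the complex V median, 0.1, was 1.66 without control replicate 2, the complex IV median, -0.62, was 0.36 with the replicate block, and the complex II median, 0.46, was -1.52 at a mean CPM of at least 5. The complex I share in controls, 0.516%, was 1.05% outside the 100 most abundant accessions. Uqcrh, at 1.77, was at -1.74 with the replicate block, at -0.48 in limma-voom, and at -3.05 to 2.69 with a replicate left out. Atp5b, at 0, was at 0.05 without a filter, 2.88 with the replicate block, 2.15 in limma-voom and -1.54 to 5.5 with a replicate left out. Atp5g2, at -3.8, ranged from -7.7 to 4.12 with a replicate left out. Cox6a1, at 0.35, was at -0.26 in limma-voom and at -0.35 to 1.01 with a replicate left out. The cause was not tested. Of the 33 genes whose fold change was recomputed, 29 kept its sign under every alternative run. Many of the 33 had been named for a large fold change or for groups that did not overlap, which favours a kept sign. The count therefore does not measure stability over all subunit genes, for which no such count is given. With median counts of 10 to 30 and a biological coefficient of variation of 1.22, the standard errors of the printed log2 changes were 1.28 to 2.77.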
